A study of Mus musculus with 21 samples.

Results

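The mitochondrial genome of the mouse was read here through the 37 genes that the deposited table places on chromosome MT, of 56691 genes in the table. They comprised 13 genes for proteins, 2 for ribosomal RNAs and 22 for transfer RNAs, and all carried symbols starting with mt-. The rule for the members was their chromosome alone and used no measured value, but it was set with earlier results of these data known. Of the 37 genes, 19 had a count in at least 1 library, namely all 13 mRNAs, both rRNAs and 4 tRNAs, and 17 reached the mean FPKM of 0.5 (counts scaled by gene length and by library total) that was required for a test.

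The RNA came from hearts of mice given doxorubicin (DOX), a DNA-damaging drug of the anthracycline class that can injure heart muscle, and the question was how the cardiac response differs in the presence of a tumor. Control mice (5 libraries) carried no tumor and received normal saline. DOX mice (5 libraries) carried no tumor and received repeated weekly intraperitoneal injections of doxorubicin. Tb mice (6 libraries) carried a subcutaneous tumor grown from 4T1, a murine breast cancer line, and received saline, and Tb-DOX mice (5 libraries) carried the same kind of tumor and received doxorubicin. Strain, sex and age were not given in the sources used here. The labels name the 4T-1 line as the source of every library, but 12 heart muscle genes together made up 58600 to 104000 CPM (counts scaled to equal library totals, with TMM factors, the trimmed mean of M-values) while the sum of 8 epithelial genes reached at most 4.72 CPM, so the libraries were read as heart.

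Mammalian mitochondrial DNA is a small circle transcribed from both strands into long precursors. The tRNAs lie between the other genes and are cut out of the precursors, which frees the mRNAs and rRNAs. The mRNAs encode core subunits of the respiratory chain (7 of complex I, 1 of complex III, 3 of complex IV and 2 of ATP synthase), and mt-Rnr1 (12S) and mt-Rnr2 (16S) form the RNA of the small and large mitochondrial ribosomal subunits. All other subunits, the proteins of mitochondrial transcription and the proteins of the mitochondrial ribosome come from the nucleus. Heart muscle is dense in mitochondria, and doxorubicin is known to accumulate in them.

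The coordinates, strands and symbols of all 37 genes were the same in the GENCODE M21 annotation, whose transcripts (build GRCm38) supplied the sequences printed here. The genes follow each other with almost no space. The mRNA of mt-Atp8, a small subunit of ATP synthase (MT:7766-7969, plus strand), shares its last 43 bases, in capitals, with the start of mt-Atp6, the proton channel subunit of the same enzyme. The pair is shown because reads over the shared bases belong to either gene.
mt-Atp8: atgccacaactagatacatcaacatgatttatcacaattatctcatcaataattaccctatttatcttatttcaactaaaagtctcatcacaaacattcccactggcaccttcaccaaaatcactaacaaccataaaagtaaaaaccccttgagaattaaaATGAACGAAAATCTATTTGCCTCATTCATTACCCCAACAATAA

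The genes mt-Nd5 and mt-Nd6, both subunits of complex I, meet end to end on opposite strands, and mt-Nd6 is the only mRNA of the 13 on the minus strand. Their last 60 bases (MT:13506-13565, plus strand, and MT:13552-13611, minus strand) are shown because these mRNAs lead the mRNA results. The capitals mark the 14 bases that lie over the other gene.
mt-Nd5: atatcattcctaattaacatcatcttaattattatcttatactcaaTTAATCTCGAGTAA
mt-Nd6: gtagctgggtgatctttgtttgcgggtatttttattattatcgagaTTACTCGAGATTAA

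The rRNAs carry the main difference with DOX. A stretch of 60 bases of mt-Rnr1 (MT:677-736) and of mt-Rnr2 (MT:1461-1520), both on the plus strand, is shown around the longest run of A, in capitals, which was 5 bases in mt-Rnr1 and 7 in mt-Rnr2. The study enriched mRNA with oligo(dT) beads, while the labels name oligo(dT) beads or removal of rRNA. The part of this enrichment in the levels of the mitochondrial rRNAs and tRNAs was not tested.
mt-Rnr1: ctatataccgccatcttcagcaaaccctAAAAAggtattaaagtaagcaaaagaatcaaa
mt-Rnr2: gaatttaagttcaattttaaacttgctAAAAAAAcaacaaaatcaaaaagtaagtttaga

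Several mitochondrial mRNAs have near-identical copies among the annotated transcripts of the nuclear genome. A stretch of mt-Co2, a core subunit of cytochrome c oxidase (MT:7457-7516, plus strand), is set beside its copy on chromosome 1, Gm28661 (100% identical over 681 bases), and its copy on chromosome 2, Gm13341 (95.91% identical). The capitals mark the 6 positions at which mt-Co2 and Gm13341 differ. The chromosome 1 copy carries none of these differences.
mt-Co2: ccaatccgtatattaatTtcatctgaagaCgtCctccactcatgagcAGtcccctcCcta
Gm28661: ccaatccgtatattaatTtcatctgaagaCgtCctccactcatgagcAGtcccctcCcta
Gm13341: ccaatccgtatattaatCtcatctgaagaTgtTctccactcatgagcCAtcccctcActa

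Depth ranged from 13521200 to 18601445 counts per library. The mitochondrial genes took 14.6% to 28.9% of all counts. For Control this share was 26.5%, 27.4%, 14.6%, 28.9% and 27.4%. For DOX it was 26.9%, 26.0%, 21.3%, 23.9% and 25.4%, and for Tb-DOX 22.5%, 22.3%, 23.7%, 18.3% and 23.5%. For Tb the lowest share was 20%, the median 24.2% and the highest 26.7%. The groups overlapped, the median was highest in Control (27.4%) and lowest in Tb-DOX (22.5%), and the counting error of a single share was small, with 95% Wilson intervals at most 0.048 percentage points wide. Such intervals cover counting error only.

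Control 3 stood apart from the other Control libraries in its mitochondrial mRNAs. Its level was 0.231 of the mean of the other 4 for mt-Nd5, 0.303 for mt-Nd4, 0.323 for mt-Nd2, 0.338 for mt-Nd1, 0.412 for mt-Cytb, 0.494 for mt-Nd6 and 0.593 for mt-Co1. Its rRNAs did not share this, with ratios of 0.993 for mt-Rnr1 and 0.952 for mt-Rnr2. Over the tested nuclear genes (log2 CPM, a description that shares depth and gene content between libraries) Control 3 correlated with the mean of the other Control libraries at 0.988, against 0.992 to 0.994 for the other 4.

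Among the Tb libraries, Tb 5 had the lowest correlation with its own group over nuclear genes (0.945, against 0.98 to 0.992 for the others). Tb 1 correlated slightly better with Control (0.985) than with the other Tb libraries (0.98), and Tb 6 slightly better with Tb-DOX (0.985 against 0.983). Calls among the members that Control 3, Tb 5 or Tb 6 changed are given with and without that library, and counts over the lists of nuclear genes with and without Control 3 and Tb 5 where they moved by more than 1.5 times.

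The 13 mRNAs fell into a high and a low set (the plot of FPKM by gene). The 7 mRNAs mt-Co1, mt-Cytb, mt-Nd1, mt-Nd2, mt-Nd4, mt-Nd5 and mt-Nd6 held 99.8% of the mitochondrial mRNA counts, with FPKM values from 3020 to 68800 over all libraries. The other 6, mt-Co2, mt-Atp6, mt-Co3, mt-Nd3, mt-Nd4l and mt-Atp8, held 0.243%, with FPKM values from 2.1 to 1330. In mean FPKM, a level per length, the order was mt-Co1 (57300), mt-Cytb (35000), mt-Nd1 (31600), mt-Nd2 (20900), mt-Nd4 (13700), mt-Nd5 (11000), mt-Nd6 (9820), mt-Rnr2 (6370) and mt-Rnr1 (4340). The first 7 of these were also the first 7 of all genes in the table, ahead of the most abundant nuclear gene, Mb (5250), which encodes myoglobin, the oxygen store of muscle.

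**Figure D1:**
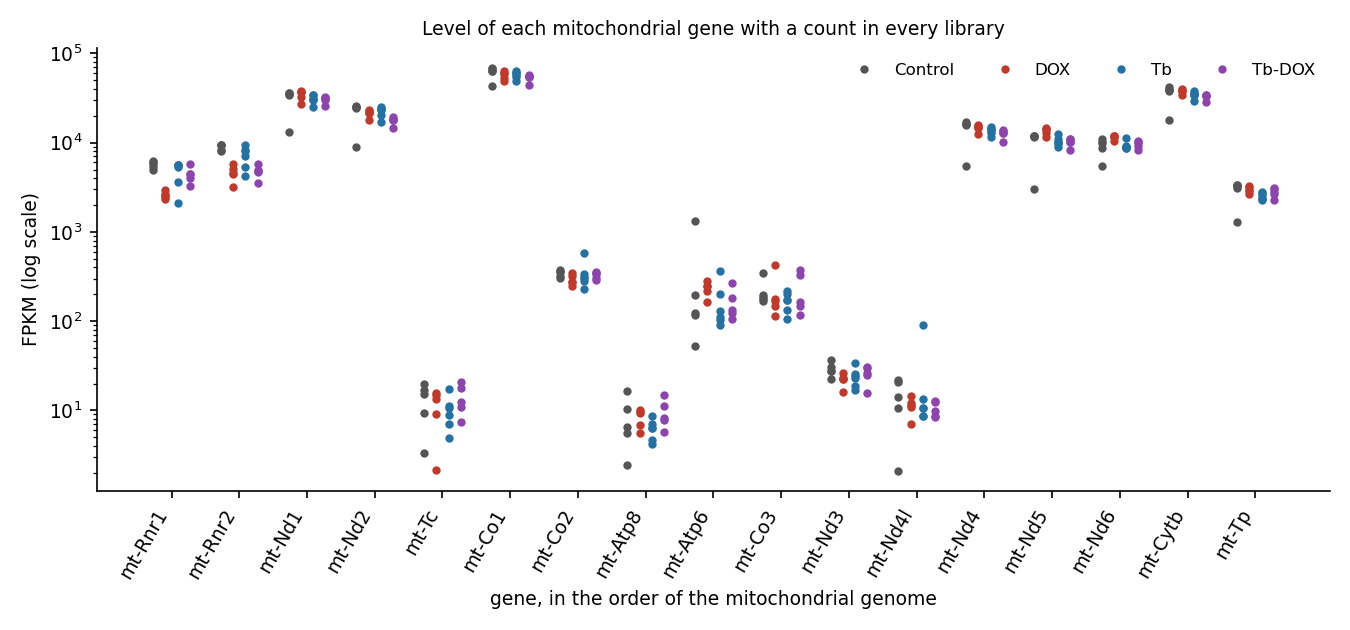
FPKM (log scale) of the 17 mitochondrial genes with a count in every library, in the order of the mitochondrial genome, 1 point per library and 1 color per group. The 7 abundant mRNAs lie between 3020 and 68800 and the 6 others between 2.1 and 1330, and the low Control point of each abundant mRNA is Control 3.

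Neighbours in this order were not all separated. The ranges of mt-Cytb (18000 to 41800 FPKM) and mt-Nd1 (13200 to 37600 FPKM) overlapped widely, as did those of mt-Nd5 (3020 to 14500 FPKM) and mt-Nd6 (5440 to 11900 FPKM). mt-Co1, the catalytic subunit of cytochrome c oxidase, was above mt-Cytb, the subunit of complex III encoded in mitochondrial DNA, in range (43200 to 68800 FPKM). As a share of mitochondrial mRNA counts mt-Co1 had a median of 39.7%, mt-Cytb 17.8%, mt-Nd1 13.5%, mt-Nd2 9.35%, mt-Nd5 8.66%, mt-Nd4 8.47% and mt-Nd6 2.28%.

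The low level of 5 of the 6 sparse mRNAs went with sequence shared with chromosome 1. Of all stretches of 150 bases, the read length, 99.8% of those in mt-Co3, 99.4% in mt-Co2, 99.4% in mt-Atp6, 98.0% in mt-Nd4l and 97.0% in mt-Nd3 also occurred in an annotated nuclear transcript, compared with 59.2% in mt-Nd4, 23.6% in mt-Co1 and 0% in the 8 other mRNAs and rRNAs. mt-Atp8, also sparse (mean 7.99 FPKM), had no such stretch in an annotated transcript and overlaps mt-Atp6 over 43 of its 204 bases. It lies mostly between mt-Co2 and mt-Atp6. On chromosome 1 the bases between the copies of these genes, Gm10925 (to 24653732) and Gm28661 (from 24653966), were not searched. Whether reads with more than 1 place in the genome were dropped in the counting is not given in the sources used here, and its part in the low values was not tested.

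**Figure D2:**
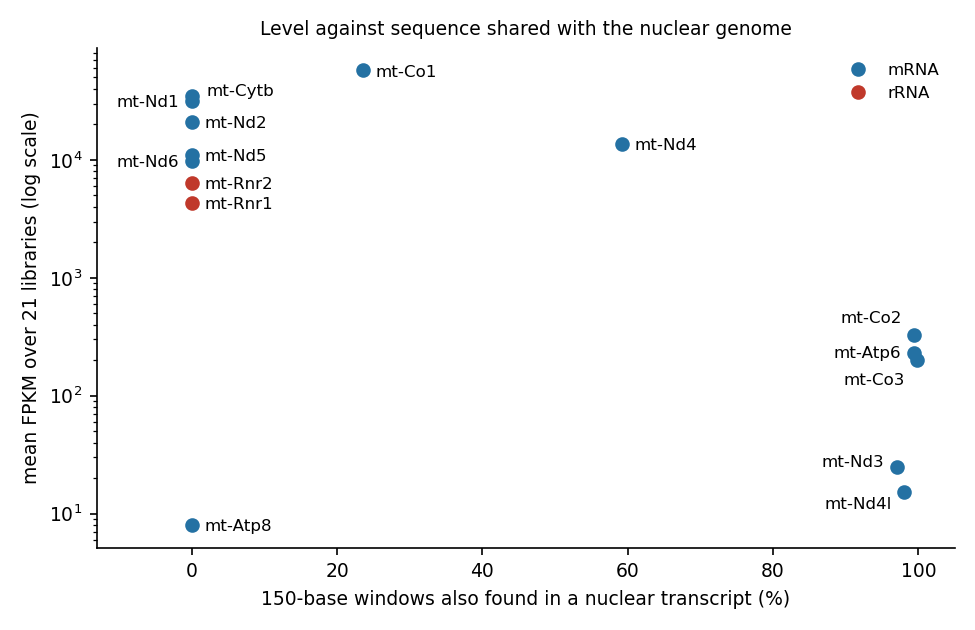
Mean FPKM over 21 libraries (log scale) against the percentage of 150-base windows that also occur in an annotated nuclear transcript, 1 point for each of the 13 mRNAs and 2 rRNAs. Genes with at least 97.0% shared windows sit at a mean of 326 FPKM or less, and mt-Atp8 is the single low gene with none. Nuclear sequence outside annotated transcripts was not searched.

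The chromosome 1 copies carried counts too (GRCm39, chromosome 1, from 24650616 to 24655278). Gm28661 (1:24653966-24654646) and mt-Co2 divided their summed counts so that 47.1% to 72.9% lay on mt-Co2. The share on the mitochondrial gene was 23.9% to 86.9% for mt-Atp6 against Gm10925, 15.7% to 80.8% for mt-Co3 against Gm28437, 12.5% to 79.2% for mt-Nd4l against Gm10222 and 3.72% to 11.9% for mt-Nd3 against Gm28438. For mt-Nd4 and mt-Co1, which are only in part shared, at least 99.3% and 99.7% lay on the mitochondrial gene. The values of the 5 mostly shared genes are therefore uncertain as measures of the mitochondrial mRNA, and single libraries jumped in several of them. mt-Atp6 stood at 936.3 CPM in Control 4 against 32.75 to 134.7 in the other Control libraries, and mt-Nd4l at 27.03 CPM in Tb 1 against 2.291 to 3.919 in the other Tb libraries.

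Of the 22 tRNAs, 18 had no count in any library, which allows at most 3 counts per library or 0.161 to 0.222 CPM. The 4 with a count all lie on the minus strand, where 8 of the 22 lie, and none of the tRNAs on the plus strand had one. mt-Tp (proline; MT:15356-15422) held nearly all tRNA counts, with 1280 to 3360 FPKM. mt-Tc (cysteine; MT:5192-5257) had 2 to 21 counts per library, mt-Tn (asparagine) 8 counts in 3 libraries and mt-Te (glutamate) 2 counts in 1 library. mt-Tp is the last annotated gene before the control region and mt-Tc borders the only larger gap, 32 bases, between neighbouring genes. The gene between the 2 rRNAs, mt-Tv (valine; MT:1025-1093), and mt-Tl1 (leucine; MT:2676-2750) right after mt-Rnr2 had no count, and neither did, at the other side of the control region, mt-Tf (phenylalanine; MT:1-68). Small RNAs of the nucleus were also sparse, with 2 of 9 listed genes tested and at most 217 counts for the most abundant, Rn7sk. The sequences of mt-Tp and mt-Tf are shown, with no base in capitals, as the genes on either side of the control region.
mt-Tp: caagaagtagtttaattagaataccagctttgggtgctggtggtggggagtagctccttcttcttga
mt-Tf: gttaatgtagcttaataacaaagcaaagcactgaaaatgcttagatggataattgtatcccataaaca

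The comparison of DOX with Control asked what the drug changed in hearts without a tumor. The 2 rRNAs fell and mt-Nd6 rose, and the other 12 mRNAs and 2 tRNAs tested did not pass the test (adjusted p under 0.05, edgeR quasi-likelihood test, adjusted over all 13990 genes tested). This gave 1 of 17 members higher and 2 lower, compared with 18% of all genes higher and 18.2% lower. The median log2 fold change of the members was 0.09, and 0.0024 over all genes tested. None of the members changed at least 2-fold with the test passed, compared with 9.95% of all genes. In bulk tissue fewer cells of a type and less RNA per cell cannot be told apart. The summed level of 12 cardiomyocyte genes was 70800 to 89500 CPM in Control and 85000 to 104000 in DOX, and 5 of the 12 rose and 1 fell.

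mt-Rnr1 had 4813, 6030, 5361, 5611 and 5135 CPM in Control and 2799, 2787, 2835, 2564 and 2611 CPM in DOX. Every DOX library was below every Control library, and the DOX values lay close together. The log2 fold change was -0.99 (SE 0.20, 95% confidence interval -1.39 to -0.58, adjusted p = 0.000635), a fold of 0.504.

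mt-Rnr2 had 13510, 15350, 13570, 15330 and 12810 CPM in Control and 10030, 9031, 7115, 8094 and 5660 CPM in DOX. Again the groups did not overlap. The log2 fold change was -0.82 (SE 0.20, interval -1.23 to -0.41, adjusted p = 0.00285), a fold of 0.566. Groups that did not overlap were found for 13.3% of all genes tested in the lower direction and for 12% in the higher direction.

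The fall of both rRNAs rested on no single library. With each of the 21 libraries left out in turn, the log2 fold change of mt-Rnr1 ran from -1.03 to -0.94 and that of mt-Rnr2 from -0.92 to -0.71, and both passed in all 21 fits. Without Control 3 they were -0.98 (adjusted p = 0.00156) and -0.83 (adjusted p = 0.00543). The rRNA share was 1.79% to 2.09% of all counts in Control and 0.742% to 1.15% in DOX.

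**Figure D3:**
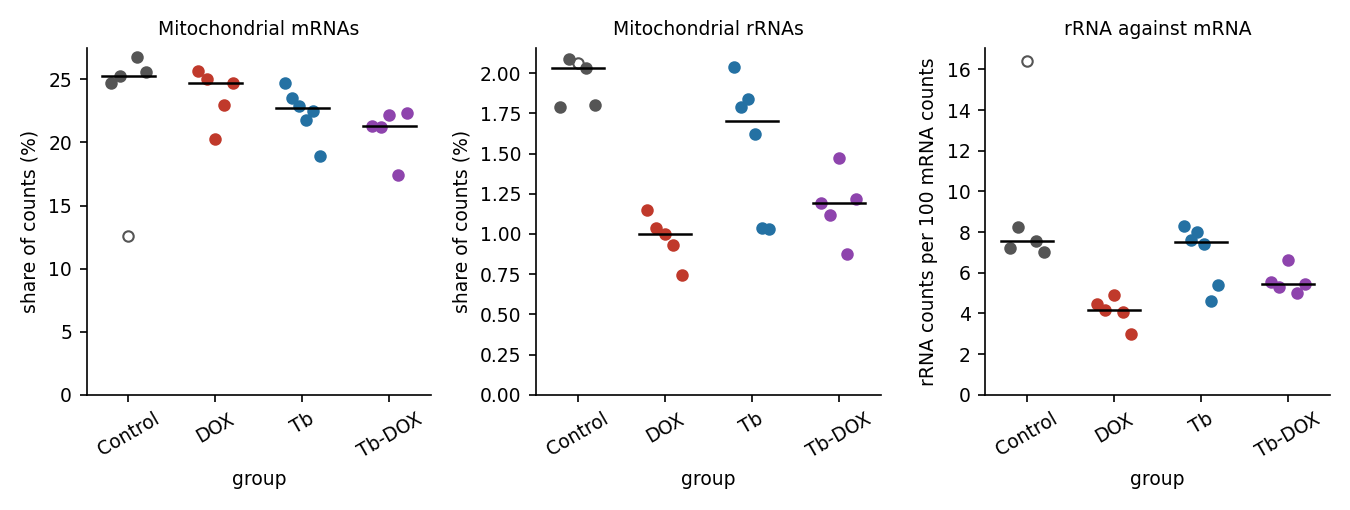
Share of all counts on the 13 mitochondrial mRNAs (left) and on the 2 rRNAs (middle), and rRNA counts per 100 mRNA counts (right), 1 point per library, with a line at the median of each group and Control 3 as an open circle. The rRNA share of the DOX libraries, 0.742% to 1.15%, lies below that of all Control libraries, 1.79% to 2.09%, while the mRNA shares overlap.

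The mRNAs did not share this fall, so the balance between rRNA and mRNA moved. Per 100 counts on mitochondrial mRNAs there were 7.24, 8.27, 16.4, 7.57 and 7.03 rRNA counts in Control and 4.48, 4.17, 4.92, 4.07 and 3.01 in DOX. All DOX values were below all Control values, also with Control 3, the highest, set aside. The ratio of mt-Rnr2 to mt-Rnr1 counts was 2.49 to 2.81 in Control and 2.17 to 3.58 in DOX, which overlapped.

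Among the mRNAs, mt-Nd6 had 5207, 5326, 2596, 5947 and 4537 CPM in Control and 6885, 6933, 5401, 6962 and 6767 CPM in DOX. The groups overlapped through Control 4 and DOX 3. The log2 fold change was 0.48 (SE 0.17, interval 0.13 to 0.83, adjusted p = 0.0286). This call depended on the libraries and the fit: without Control 3 the value was 0.33 (adjusted p = 0.0558), with Control and DOX fitted alone it was 0.48 (adjusted p = 0.0571), and it passed in 16 of the 21 fits that left out 1 library. With Control 3 and Tb 5 both left out it passed at 0.33 (SE 0.11, adjusted p = 0.0214). The calls were lost without Control 3, Control 5, DOX 1, DOX 2 or DOX 4, with adjusted p-values up to 0.0558.

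mt-Nd5, which ends against mt-Nd6 on the opposite strand, had 21420, 22330, 5058, 22320 and 21640 CPM in Control and 29110, 30040, 20770, 29080 and 26030 CPM in DOX. In DOX only the library DOX 3 fell within the Control range. The log2 fold change of 0.54 (SE 0.26, interval 0.01 to 1.08) did not pass the test (adjusted p = 0.105), nor did it without Control 3 (0.31, adjusted p = 0.108). As a share of mitochondrial mRNA counts, mt-Nd5 made up 4.38% to 8.63% in Control and 9.47% to 11.1% in DOX, and mt-Nd6 1.78% to 2.25% in Control and 2.40% to 2.67% in DOX. These shares did not overlap, with or without Control 3. That of mt-Nd3 did not overlap either but was lower, at 0.00372% to 0.00615% in Control and 0.00277% to 0.00354% in DOX. Such shares exist for the mitochondrial mRNAs only, so no share of all genes stands beside them. The share of mt-Co1 was 39.2% to 53.1% in Control and 35.4% to 38.1% in DOX.

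**Figure D4:**
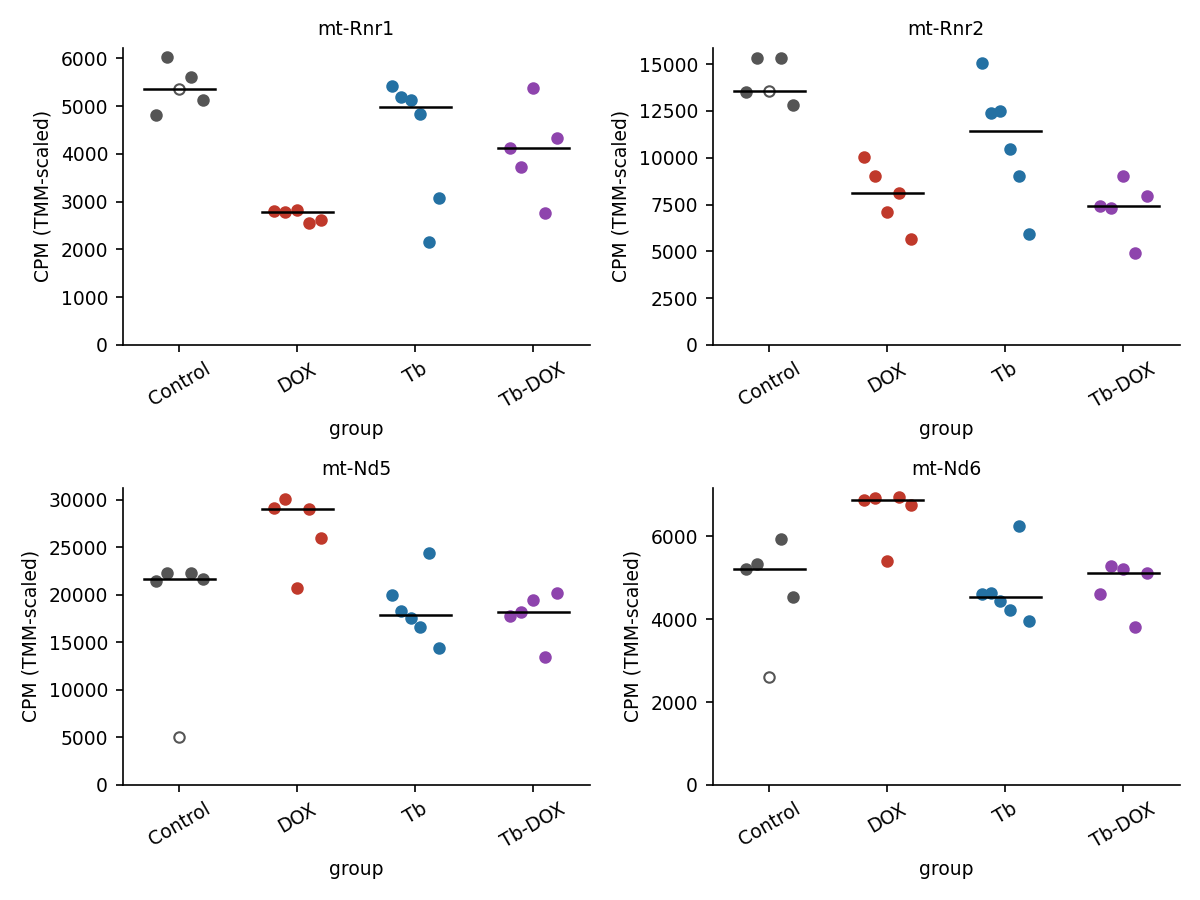
CPM (scaled by TMM) of mt-Rnr1, mt-Rnr2, mt-Nd5 and mt-Nd6, 1 point per library, with a line at the median of each group and Control 3 as an open circle. Both rRNAs are lower in every DOX library than in every Control library, and mt-Nd5 and mt-Nd6 are higher in every DOX library than in every Tb-DOX library.

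The remaining abundant mRNAs differed less. mt-Co1 had 100500, 101300, 61340, 109700 and 101900 CPM in Control and 109100, 105700, 75660, 92890 and 102100 CPM in DOX. mt-Cytb had 44220, 45000, 18910, 49330 and 44940 CPM in Control and 49660, 49810, 38570, 48840 and 50820 CPM in DOX. In both genes the groups overlapped, with Control 3 and DOX 3 as the lowest library of each group.

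mt-Nd1 had 33130, 34960, 11630, 35970 and 33560 CPM in Control and 40100, 40300, 25610, 35500 and 39500 CPM in DOX. mt-Nd2 had 25750, 26520, 8549, 27860 and 25790 CPM in Control and 26760, 26400, 18490, 25560 and 24900 CPM in DOX. mt-Nd4 had 22240, 22640, 6907, 24200 and 22260 CPM in Control and 24140, 23560, 17200, 22640 and 23870 CPM in DOX. Again Control 3 and DOX 3 were the lowest of their groups, and the groups overlapped.

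These 5 mRNAs had small differences with wide intervals. The log2 fold changes were 0.28 for mt-Nd1 (interval -0.17 to 0.73), 0.23 for mt-Cytb (-0.15 to 0.61), 0.18 for mt-Nd4 (-0.28 to 0.64), 0.09 for mt-Nd2 (-0.37 to 0.56) and 0.03 for mt-Co1 (-0.29 to 0.35). Their adjusted p-values were 0.33, 0.337, 0.547, 0.774 and 0.894. Without Control 3 the same genes stood at 0.08, 0.06, -0.03, -0.11 and -0.08, with standard errors of 0.12 to 0.15 in place of 0.16 to 0.22. The direction of mt-Nd4, mt-Nd2 and mt-Co1 therefore turned with that library. With library totals alone in place of TMM scaling, mt-Nd2 and mt-Co1 also turned, to -0.03 and -0.10.

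The sparse mRNAs and the tRNAs did not pass the test either. Their log2 fold changes were 0.15 for mt-Atp8, 0.11 for mt-Co3, -0.09 for mt-Co2, -0.19 for mt-Nd4l, -0.24 for mt-Nd3 and -0.56 for mt-Atp6, with standard errors of 0.18 to 0.62. mt-Atp6 stood at 1.04 (adjusted p = 0.0585) without Control 4 and at 0.00 with the counts of its chromosome 1 copy added. mt-Tp was at 0.19 (interval -0.22 to 0.59; -0.01 without Control 3) and mt-Tc at -0.07 (interval -1.01 to 0.87).

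**Figure D5:**
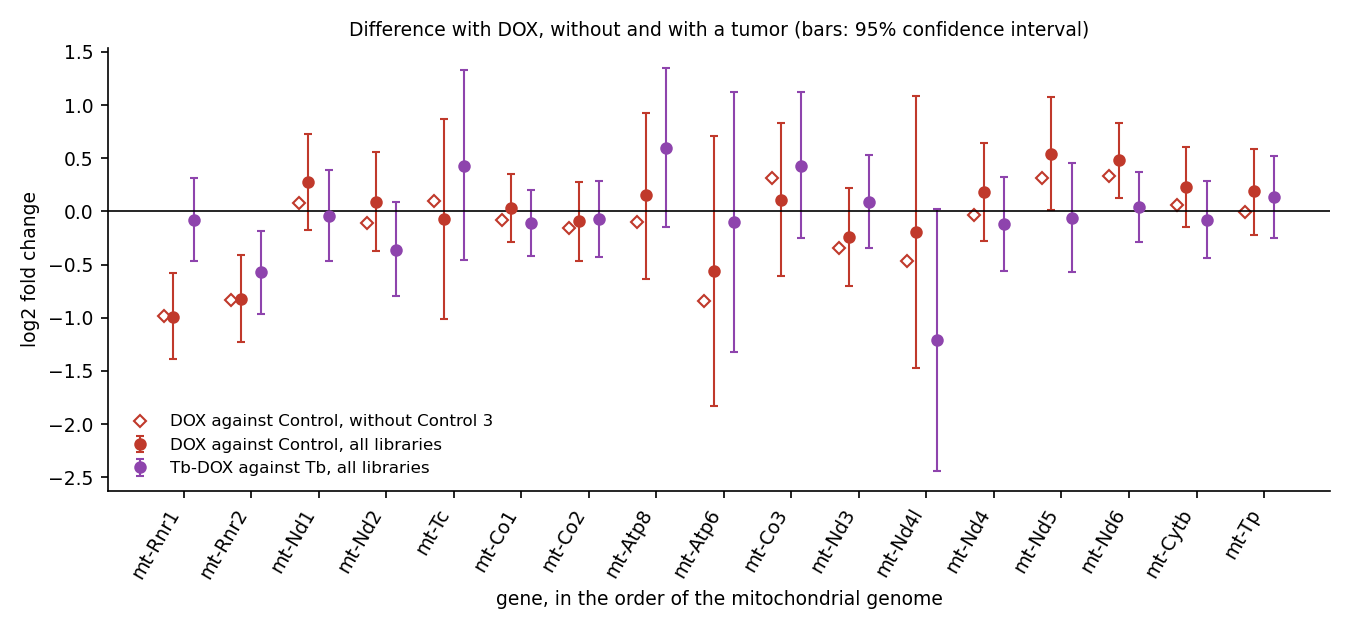
Log2 fold change of each of the 17 tested genes, in the order of the mitochondrial genome, for DOX against Control and for Tb-DOX against Tb, with bars for the 95% confidence interval. Open diamonds give DOX against Control without Control 3. The intervals of mt-Rnr1, mt-Rnr2, mt-Nd5 and mt-Nd6 exclude 0 for DOX against Control, and that of mt-Rnr2 alone does so for Tb-DOX against Tb.

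The comparison of Tb-DOX with Tb asked the same in hearts of tumor-bearing mice. None of the 17 members passed the edgeR test in either direction, compared with 2.18% of all genes higher and 2.54% lower. At an unadjusted p under 0.05 (edgeR) there was 1 member, mt-Rnr2, compared with 2855 of the 13990 genes tested. With DESeq2 the same gene passed (adjusted p = 0.0351), and the share of all genes was not counted for that fit. The median log2 fold change of the members was -0.07, and -0.0223 over all genes tested.

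mt-Rnr1 had 4130, 3724, 5376, 2770 and 4339 CPM in Tb-DOX, and 2150 at the lowest, 4980 at the median and 5429 at the highest in Tb. The groups overlapped fully, since Tb 5 and Tb 6, at 2150 and 3078 CPM, were low. These 2 libraries had the highest neutrophil sums of the Tb group (5518 and 4785 CPM, against 592 to 2205 in the other 4), and Tb-DOX 4, the lowest Tb-DOX library, had the highest of its group (3703 CPM, against 882.7 to 2650). The part of this in the rRNA levels was not tested. The log2 fold change was -0.08 (SE 0.19, interval -0.47 to 0.31, adjusted p = 0.852).

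mt-Rnr2 had 7401, 7330, 9033, 4931 and 7980 CPM in Tb-DOX, and 5950 at the lowest, 11400 at the median and 15030 at the highest in Tb. Its log2 fold change of -0.57 (SE 0.19, interval -0.96 to -0.18) had an adjusted p of 0.0863, and of 0.0149 at -0.69 without Tb 6. The counts of mt-Rnr2 per count of mt-Rnr1 were 1.68 to 1.97 in Tb-DOX, below all Control (2.49 to 2.81) and all DOX (2.17 to 3.58) libraries, and overlapped with Tb (1.93 to 4.2) through Tb 6.

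No mRNA passed the edgeR test in this comparison. mt-Co1 had a log2 fold change of -0.11 (interval -0.42 to 0.20), mt-Cytb -0.08 (-0.44 to 0.29), mt-Nd1 -0.04 (-0.47 to 0.39), mt-Nd5 -0.06 (-0.57 to 0.46) and mt-Nd6 0.04 (-0.29 to 0.37). mt-Nd4 stood at -0.12 and mt-Nd2 at -0.36 (interval -0.80 to 0.09, adjusted p = 0.37). As a share of mitochondrial mRNA counts, mt-Nd2 made up 9.34% to 11.1% in Tb and 8.61% to 9% in Tb-DOX, which did not overlap. The sparse mRNAs ran from -1.21 for mt-Nd4l, a value that was 0.01 without Tb 1, to 0.60 for mt-Atp8. Between them stood mt-Atp6 at -0.10, mt-Co2 at -0.07, mt-Nd3 at 0.09 and mt-Co3 at 0.43. mt-Tp was at 0.14 and mt-Tc at 0.43. Without Control 3 and Tb 5, still none of the 17 passed.

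The difference between the DOX responses with and without a tumor was tested by the interaction. Only mt-Rnr1 passed, with 0.91 (SE 0.27, interval 0.35 to 1.46, adjusted p = 0.0396), the response in tumor-bearing mice being less negative. This is 1 of 17 members higher and 0 lower, compared with 3.95% of all genes higher and 5% lower. The call was kept in 9 of the 21 fits that left out 1 library and missed the threshold in the other 12, with adjusted p-values up to 0.0817. These were the fits without Control 2, 3, 4 or 5, DOX 2, 3 or 4, Tb 6, or Tb-DOX 1, 2, 3 or 5. Without Control 3 the value was 0.91 (adjusted p = 0.0548), and without Tb 6 it was 0.82 (adjusted p = 0.0573). The interaction was 0.25 for mt-Rnr2 (interval -0.31 to 0.81, adjusted p = 0.56), -0.60 for mt-Nd5 (adjusted p = 0.27) and -0.44 for mt-Nd6 (adjusted p = 0.205).

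The tumor itself was compared without the drug and with it. In Tb against Control none of the members passed the edgeR test, compared with 5% of all genes higher and 1.29% lower. None had an unadjusted p under 0.05, compared with 2862 of the 13990 genes tested. The log2 fold change was -0.33 for mt-Rnr1 (interval -0.71 to 0.06) and -0.37 for mt-Rnr2 (interval -0.76 to 0.01). With 1 library left out, mt-Rnr1 ran from -0.40 to -0.18 and mt-Rnr2 from -0.49 to -0.24. Without Control 3, mt-Tp passed at -0.44 (adjusted p = 0.0259), and the Tb libraries of mt-Co1, mt-Cytb, mt-Nd1, mt-Nd4 and mt-Tp were all below the other 4 Control libraries. With Control 3 left out, 0.772% of all genes passed lower and 3.42% were lower without overlap. With DESeq2 none passed. With Control 3 and Tb 5 both left out, mt-Tp (-0.46, adjusted p = 0.0267) and mt-Atp6 (-1.89, adjusted p = 0.0472) passed in edgeR. The share of all genes was not counted for this comparison in that fit.

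Tb-DOX was also compared with DOX, a comparison that shares the DOX libraries with DOX against Control. Here mt-Rnr1 was higher (0.58, SE 0.19, interval 0.18 to 0.99, adjusted p = 0.043), and no member was lower, compared with 9.52% of all genes higher and 7.93% lower. That call was kept in 8 of the 21 fits that left out 1 library. It was lost, with adjusted p-values up to 0.135, without Control 1, 2, 4 or 5, any of the DOX libraries, or Tb-DOX 1, 2, 3 or 5. The groups overlapped through Tb-DOX 4, which at 2770 CPM lay within the DOX range. mt-Rnr2 did not share the difference (-0.12, interval -0.53 to 0.28).

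mt-Nd5 and mt-Nd6 were lower in every Tb-DOX library than in every DOX library, as were 6.83% of all genes tested. mt-Nd5 had 17810, 18210, 19460, 13440 and 20240 CPM in Tb-DOX, all under the lowest DOX value of 20770, and mt-Nd6 had 4611, 5297, 5210, 3808 and 5129 CPM, all under the lowest DOX value of 5401. The log2 fold changes were -0.60 for mt-Nd5 (SE 0.26, adjusted p = 0.113) and -0.45 for mt-Nd6 (SE 0.17, adjusted p = 0.0637), which missed the threshold. Without Tb 5, mt-Nd6 passed at the same fold change (-0.45, adjusted p = 0.0391).

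Control 3 enters this comparison only through the shared estimate of spread. Without it the same fold changes had standard errors of 0.14 and 0.12 and passed, with adjusted p-values of 0.00512 for mt-Nd5 and 0.0158 for mt-Nd6, and 3 more mRNAs then passed, namely mt-Nd2 at -0.46 (adjusted p = 0.0306), mt-Nd4 at -0.41 (adjusted p = 0.0306) and mt-Cytb at -0.39 (adjusted p = 0.0258). This made 5 of 17 members lower, compared with 8.14% of all genes in that fit. With DOX and Tb-DOX fitted alone, 4 members were lower, namely mt-Nd5, mt-Nd6, mt-Nd2 and mt-Atp6, compared with 8.5% of all genes.

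The nuclear copies were also followed, since their counts and those of the mitochondrial genes cannot be told apart where the sequence is identical. Of 10 copies tested, 1 was lower in DOX against Control and 1 in Tb-DOX against Tb, and none was higher in either, compared with 18.2% of all genes lower and 18% higher in the first comparison and 2.54% lower and 2.18% higher in the second. Gm28438, the copy of mt-Nd3, had 67.09 to 111.5 CPM in Control, 66.25 to 118.4 in DOX, 87.22 to 211.2 in Tb and 54.2 to 107.4 in Tb-DOX. Its level was higher in Tb than in Control (log2 fold change 0.72, SE 0.21, adjusted p = 0.041) and lower in Tb-DOX than in Tb (-0.83, SE 0.21, adjusted p = 0.0271), with overlap between the groups in both comparisons. The call in Tb-DOX against Tb was lost without Tb 2, 3 or 4 or Tb-DOX 1, 4 or 5 (adjusted p up to 0.0688). mt-Nd3 itself did not pass in either comparison, and the sum of both was lower in Tb-DOX than in Tb (-0.77, adjusted p = 0.0362). Gm13341, the copy of mt-Co2 on chromosome 2, was lower in DOX than in Control (-1.03, SE 0.32, adjusted p = 0.0144) and in Tb than in Control (-1.40, SE 0.30, adjusted p = 0.00498), at 8 to 58 counts per library.

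The nuclear genes that serve mitochondrial DNA gave a mixed picture in DOX against Control, where 18% of all genes were higher and 18.2% lower. Of 9 genes for mitochondrial transcription, 1 rose and 3 fell (median log2 fold change -0.31). The riser was Tfb2m, an initiation factor (0.54, SE 0.10, adjusted p = 0.000327), and those that fell were Tfam, which packages mitochondrial DNA and is required for initiation (-0.31, SE 0.12, adjusted p = 0.0446), Mterf1a (-0.75, adjusted p = 0.0351) and Mterf2 (-0.68, adjusted p = 0.0393), members of the termination factor family. The call of Tfb2m was kept in all 21 fits that left out 1 library. That of Tfam was kept in 7 and lost without any 1 of the Control libraries, DOX 1, 2, 3 or 4, Tb 3 or 4, or Tb-DOX 1, 2 or 3 (adjusted p up to 0.146). Mterf1a was lost without Control 2, 4 or 5 or DOX 4 or 5 (up to 0.0888), and Mterf2 without any 1 of the Control libraries, DOX 3, 4 or 5, or Tb-DOX 3 (up to 0.116). In Tb-DOX against Tb 0 of the 9 passed, where 2.18% of all genes were higher and 2.54% lower. Counts over this and the following lists depended on the libraries, and without Control 3 and Tb 5 the share of all genes called rose to 21.3% higher and 20% lower in DOX against Control, and to 3.38% higher and 3.48% lower in Tb-DOX against Tb. For transcription that fit gave 1 higher and 2 lower with DOX.

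Of 26 genes for the processing and modification of mitochondrial RNA, 3 rose and 1 fell with DOX, compared with 18% of all genes higher and 18.2% lower. The one that fell was Tfb1m, which methylates the 12S rRNA, with 7.55 to 11.5 CPM in Control and 3.47 to 7.24 in DOX, groups that did not overlap (-0.98, SE 0.24, adjusted p = 0.00283). Hsd17b10, a subunit of the enzyme that cuts the 5′ ends of mitochondrial tRNAs, rose (0.54, SE 0.10, adjusted p = 0.000231) and did so in tumor-bearing mice as well (0.33, SE 0.09, adjusted p = 0.0391). The latter call was lost without DOX 2, Tb 1, 2, 3 or 4, or Tb-DOX 1, 2, 3 or 5 (adjusted p up to 0.101). In Tb-DOX against Tb 4 of these 26 rose and 0 fell, compared with 2.18% of all genes higher and 2.54% lower. Without Control 3 and Tb 5 the counts were 4 higher and 2 lower with DOX, and 3 higher and 0 lower in tumor-bearing mice.

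Of 78 proteins of the mitochondrial ribosome, 5 rose and 16 fell with DOX (median -0.12), compared with 18% of all genes higher and 18.2% lower. Examples were Mrps6 (-0.80, SE 0.15, adjusted p = 0.000287), Mrpl36 (-0.67, SE 0.14, adjusted p = 0.00104) and Mrpl39 (-0.49, SE 0.11, adjusted p = 0.00139), and the most abundant in mean FPKM, Mrps21, stood at -0.15 (adjusted p = 0.242), and at -0.08 without Control 3. In tumor-bearing mice 1 rose and 1 fell, compared with 2.18% and 2.54% of all genes, the latter being Mrpl39 (-0.45, adjusted p = 0.016). Without Control 3 and Tb 5 the split in DOX against Control was 11 higher and 11 lower, where 21.3% of all genes were higher and 20% lower, and that in Tb-DOX against Tb was 2 higher and 1 lower.

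Of 17 mitochondrial tRNA synthetases, which charge the tRNAs, 0 rose and 5 fell with DOX, compared with 18% of all genes higher and 18.2% lower. In the fit without Control 3 and Tb 5, 4 fell, compared with 20% of all genes. Among the 5 that fell in the fit of all libraries were Cars2 (-0.90, SE 0.14, adjusted p = 8.23e-05) and Wars2 (-0.56, SE 0.11, adjusted p = 7e-04), and the most abundant, Lars2 (-0.47, SE 0.15, adjusted p = 0.0192). The call of Lars2 was lost without Control 3, at -0.29 (adjusted p = 0.0886), and without DOX 5, at -0.34 (adjusted p = 0.0567). In Tb-DOX against Tb 0 of the 17 passed, and 1 was lower without Control 3 and Tb 5, compared with 3.48% of all genes.

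Of 18 genes for the maintenance of mitochondrial DNA, 4 rose and 3 fell with DOX, compared with 18% of all genes higher and 18.2% lower. Among them were Polg, the polymerase that copies it (-0.40, SE 0.09, adjusted p = 0.00185), and Tk2, a mitochondrial nucleoside kinase (0.70, SE 0.19, adjusted p = 0.00609). Of 11 regulators of mitochondrial biogenesis, 1 rose, Nrf1 (0.47, SE 0.14, adjusted p = 0.0122), while the most abundant, the coactivator Ppargc1a, stood at 0.79 (SE 0.34, adjusted p = 0.0702). The value of Ppargc1a rested on DOX 4, since the DOX libraries ran from 132 to 667 CPM against 125 to 178 in Control and the value without that library was 0.13 (adjusted p = 0.692). Without DOX 2, DOX 5 or Tb 5 it was 0.93, 0.97 and 0.80, with adjusted p-values of 0.0419, 0.0276 and 0.0479. The most abundant maintenance gene, Mfn2, which fuses mitochondria, stood at 0.09 (adjusted p = 0.45), with 0.04 to 0.18 when 1 library was left out. None of these 11 and of the 18 passed in tumor-bearing mice. Without Control 3 and Tb 5, 3 of the 11 regulators were higher with DOX and the maintenance genes stood at 4 higher and 4 lower, compared with 21.3% of all genes higher and 20% lower, and 1 maintenance gene was higher in tumor-bearing mice, compared with 3.38% of all genes.

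The nuclear subunits of the respiratory chain were set beside the mitochondrial ones. With DOX, 3 of 36 tested subunits of complex I rose and 2 fell, 0 of 4 of complex II changed, 2 of 9 of complex III rose, 5 of 16 of complex IV rose and 2 fell, and 6 of 16 of ATP synthase rose and 0 fell, compared with 18% of all genes higher and 18.2% lower. The 16 genes of ATP synthase, and the 6 of them that rose, include its inhibitor, Atpif1. Medians were 0.03, 0.17, 0.04, 0.17 and 0.20 on the log2 scale. Without Control 3 and Tb 5 the counts were 7 higher and 0 lower, 2 and 0, 3 and 0, 8 and 2, and 9 and 0, in a fit that called 21.3% of all genes higher and 20% lower. Cox7a2, a subunit of complex IV, rose (0.38, SE 0.08, adjusted p = 0.00107), while Cox7a1, its heart and muscle form, fell (-0.65, SE 0.17, adjusted p = 0.00496).

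The most abundant subunits, in mean FPKM, of complexes II to IV and of ATP synthase had small positive values with DOX. Sdha of complex II stood at 0.19 (adjusted p = 0.125) and Uqcrb of complex III at 0.23 (adjusted p = 0.0615). Both passed without Control 3, at 0.27 (adjusted p = 0.0242) and 0.28 (adjusted p = 0.0334), and Uqcrb also without DOX 3, Tb 5, Tb 6 or Tb-DOX 4. Cox6b1 of complex IV (0.24, adjusted p = 0.0333) and Atp5a1 of ATP synthase (0.35, adjusted p = 0.00494) passed. The call of Cox6b1 was lost without Control 1, 2, 4 or 5 or DOX 2, 4 or 5 (adjusted p up to 0.0833).

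Atpif1, the inhibitor of ATP synthase, rose without a tumor (0.73, SE 0.14, adjusted p = 0.000447) and with a tumor (0.72, SE 0.13, adjusted p = 0.00436). Atp5c1, a subunit of the catalytic part of ATP synthase, rose in DOX against Control (0.43, SE 0.07, adjusted p = 0.000162). In Tb-DOX against Tb 1 subunit of complex I and 2 of complex IV rose, and none fell, compared with 2.18% of all genes higher and 2.54% lower. Of the 16 genes of the ATP synthase list only the inhibitor Atpif1 rose, and none fell. The fit that left out Control 3 and Tb 5 gave 5 of complex I, 1 of complex III, 2 of complex IV and 4 of the ATP synthase list higher, and none lower, compared with 3.38% of all genes higher and 3.48% lower.

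Markers of the cells of the heart moved with the groups. The summed level of the cardiomyocyte genes had medians of 74300 CPM in Control, 102000 in DOX, 69000 in Tb and 86000 in Tb-DOX. In Tb-DOX against Tb 4 of the 12 rose, while 4 of 7 fibroblast, 2 of 7 macrophage, 1 of 7 endothelial and 5 of 5 tested erythroid genes fell, compared with 2.18% of all genes higher and 2.54% lower. In DOX against Control, where 18% of all genes were higher and 18.2% lower, 5 of the 12 cardiomyocyte genes rose and 1 fell, 5 of 7 fibroblast genes, 5 of 7 macrophage genes and 5 of 5 tested erythroid genes fell, while 5 of 10 neutrophil genes rose, 1 of 7 fibroblast genes rose, and 1 of 7 endothelial genes fell, Fabp4 (-0.60, adjusted p = 0.000819). The most abundant fibroblast gene, Dcn, stood at 0.30 (adjusted p = 0.0779) and passed without DOX 5 (0.41, adjusted p = 0.00887) or Tb 5 (0.31, adjusted p = 0.0445), and the most abundant macrophage gene, C1qa, fell (-0.82, adjusted p = 0.00451). With Control 3 and Tb 5 left out, 1 endothelial gene was higher and 3 were lower with DOX and 2 were lower in tumor-bearing mice. The fibroblast sum was 1230 to 1770 CPM in Control and 924 to 1450 in DOX, the macrophage sum 110 to 138 and 49.2 to 95.8, and the erythroid sum 204 to 798 and 4.74 to 132. The neutrophil sum was 2.75 to 4.75 CPM in Control, 7.71 to 59.5 in DOX, 592 to 5520 in Tb and 883 to 3700 in Tb-DOX.

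The 9 markers of male germ cells, which a heart should lack, had a low summed level that also moved with the groups. It was 1.95 to 6.61 CPM in Control, 0 to 0.239 in DOX, 0 to 0.182 in Tb, 0 in Tb-DOX 1 and 5.27 to 5.50 in the other 4 Tb-DOX libraries. The mean level of mt-Rnr1 was 5390 CPM in Control (4810 to 6030) and 2720 in DOX (2560 to 2840). It was 4300 CPM in Tb (2150 to 5430) and 4070 in Tb-DOX (2770 to 5380). The 1 tested marker, Tnp1, was lower in DOX against Control (adjusted p = 0.00142) and higher in Tb-DOX against Tb (adjusted p = 0.0105), at no more than 1.1 CPM in any library. Of the lymphoid, adipocyte and epithelial lists 1 gene each was tested, and the lymphoid one, Cd3e, was higher in DOX against Control (adjusted p = 0.00156). The lymphoid sum was 2 to 3.26 CPM in Control and 6.16 to 312 in DOX. The part of these shifts in the values of the mitochondrial genes was not tested.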

How the data were processed

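RNA of 21 libraries was sequenced (2 × 150 bases). Per the labels, the authors used cutadapt, FastQC, HISAT2, HTSeq (0.6.1) and the build GRCm39. The strand setting and the handling of reads with several places are not given in the sources used here. The deposited table holds whole-number counts and FPKM per gene, and FPKM equalled the count scaled by gene length and library total in 100% of values (tolerance 0.0051). Groups were taken from sample titles. The labels do not say that every library is a separate animal, so p-values measure only the spread between these libraries.

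Counts were tested here for the 13990 genes whose FPKM averaged 0.5 or more, by the quasi-likelihood test of edgeR (4.0.16) with TMM scaling in R (4.3.3), all 4 groups in 1 fit, with Benjamini-Hochberg adjustment over all genes tested. The standard error is the absolute log2 fold change over the root of F. Members and lists were chosen with earlier results of these data known. The rule for named genes was all mitochondrial mRNAs and rRNAs, the 3 most abundant tRNAs and tRNAs beside a described gene, and of each other list the most abundant gene in mean FPKM and up to 4 passing genes with the smallest adjusted p, of which the text gives a part. The 4th tRNA with a count was named after its values were seen. Shares were compared with no test. Alternatives were other scalings and filters, DESeq2 (1.42.0), limma (3.58.1) on log2(FPKM + 0.1) and log2(FPKM + 1), fits of the compared groups, a replicate block, leaving out each library, and, chosen after seeing the data, counts summed with nuclear copies and leaving out Control 3 and Tb 5 together. The test was checked on simulated data. Libraries of a group correlated at 0.922 to 0.991, and none were near-identical. Sequences came from GENCODE M21 (GRCm38) transcripts.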

Additional observations from a re-analysis of the deposited data

Results flagged for a closer look

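In 80 sets of group values examined (17 genes and 3 shares in 4 groups), 24 held a library whose gap to the nearest other passed Dixon's 95% limit, where chance gives about 4. That number is for independent sets, while these share libraries and genes that varied together. Of the 24, 10 were Control 3. It was low for mt-Nd5 (5060 CPM), mt-Nd4 (6910), mt-Nd2 (8550), mt-Nd1 (11600), mt-Cytb (18900), mt-Co1 (61300), mt-Tp (79) and the mitochondrial share of counts (14.6%), and high for mt-Co3 (249 CPM) and for rRNA counts per 100 mRNA counts (16.4).

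Tb-DOX 4 was low for mt-Nd1 (21500 CPM), mt-Nd2 (13400), mt-Co1 (59500), mt-Nd4 (12300), mt-Cytb (28700) and the mitochondrial share (18.3%). DOX 3 was low for mt-Nd2 (18500 CPM), mt-Nd4 (17200), mt-Nd6 (5400) and mt-Cytb (38600). Single high values were mt-Atp6 in Control 4 (936 CPM), mt-Co3 in DOX 5 (368), mt-Nd4l in Tb 1 (27) and mt-Nd6 in Tb 5 (6260). The causes were not tested.

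The response of mt-Rnr1 to DOX differed between mice with and without a tumor by 0.91 on the log2 scale (interaction in edgeR, adjusted p = 0.0396), with the limits given in the report.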

How the results depend on the processing

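The fall of mt-Rnr1 and mt-Rnr2 with DOX passed in 13 of 13 other fits, at -1.12 to -0.98 and -0.98 to -0.81. With a fold of at least 2 required as well, 0 members were called in the 5 comparisons. With only the groups compared, 0 members were higher in DOX and 4 lower in Tb-DOX against DOX. With DESeq2, 1 was lower in Tb-DOX against Tb and 1 in Tb-DOX against DOX (mt-Nd6, -0.46). With copies summed, 1 was lower in Tb-DOX against Tb. The share of all genes called was not counted with DESeq2 or with copies summed.

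Replicate numbers are shared between groups by label only. Deviations of same-numbered libraries correlated at -0.102 to 0.037 for Control and DOX and at -0.261 to 0.174 for Tb and Tb-DOX, so the numbers did not pair them. With the replicate block, 0 members were higher in the interaction (mt-Rnr1 0.85, adjusted p = 0.0696), 1 lower in Tb-DOX against Tb (mt-Nd2) and 3 lower in Tb-DOX against DOX. The share of all genes called was not counted with the block.

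Leaving out 1 library, or Control 3 and Tb 5 together, members higher ran from 0 to 1 in DOX against Control, the interaction and Tb-DOX against DOX, and members lower from 0 to 1 in Tb-DOX against Tb, 0 to 2 in Tb against Control and 0 to 5 in Tb-DOX against DOX. Shares of all genes called were not counted for most of these fits. For DOX against Control, the log2 fold changes of genes that turned ran from -0.30 to 0.19 (mt-Tc), -0.47 to 0.04 (mt-Nd4l), -0.11 to 0.19 (mt-Nd2), -0.08 to 0.12 (mt-Co1), -0.10 to 0.57 (mt-Atp8), -0.03 to 0.27 (mt-Nd4), -0.01 to 0.26 (mt-Tp), -0.84 to 1.04 (mt-Atp6) and -0.32 to 0.31 (mt-Co3). For Tb-DOX against Tb they ran from -1.39 to 0.01 (mt-Nd4l), -0.18 to 0.14 (mt-Co2), -0.37 to 0.35 (mt-Atp6), -0.12 to 0.04 (mt-Nd5), -0.00 to 0.25 (mt-Nd3), -0.01 to 0.14 (mt-Nd6), -0.21 to 0.04 (mt-Rnr1), -0.11 to 0.05 (mt-Nd1) and -0.14 to 0.00 (mt-Cytb).

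Other settings turned these genes. For DOX against Control they stood at -0.03 (mt-Nd2), -0.10 (mt-Co1) and -0.06 (mt-Co3) with library totals, -0.02 (mt-Co1) with an FPKM filter of 5, -0.09 (mt-Co1), -0.16 (mt-Co3), 0.32 and 0.31 (mt-Atp6) and 0.01 (mt-Nd4l) with limma, 0.52 (mt-Atp6), -0.02 (mt-Co3) and 0.03 (mt-Nd4l) with the block, and 0.00 (mt-Atp6) and -0.24 (mt-Co3) with copies summed. For Tb-DOX against Tb they stood at 0.06 (mt-Atp6) with limma, -0.03 (mt-Nd3) with the block, and 0.04 (mt-Atp6), -0.22 (mt-Co3) and -0.77 (mt-Nd3) with copies summed. For Tb-DOX against DOX mt-Rnr2 was 0.06 with library totals and 0.07 with limma. The causes were not tested. Group medians of the mitochondrial share moved by less than 1 SD with each library left out. Depth limits mt-Atp8 (8 to 46 counts) and the tRNAs other than mt-Tp.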
